A study of Mus musculus with 8 samples.

Results

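The genes described here encode the proteins of the cytosolic ribosome, the particle that translates nuclear-encoded mRNAs. They were taken by symbol: Rpl, Rplp or Rps followed by a number, together with Rpsa, and without the ribosomal S6 kinase genes. The rule found 88 of the 24197 genes in the table. Of these, 77 encode subunits of the canonical ribosome, 46 in the large subunit and 31 in the small subunit. The other 11 symbols are Rpl10l, Rpl22l1, Rpl36al, Rpl37rt, Rpl39l, Rpl3l, Rpl7l1, Rps19bp1, Rps27l, Rps27rt and Rps4l, which are paralogues, retrogenes and 1 binding protein of a subunit. The rule uses symbols alone.

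The samples were livers of male CD-1 mice, an outbred strain, hypophysectomized by the supplier at 7 weeks of age and 11 weeks old when studied. Mice received a single intraperitoneal injection of recombinant rat GH (growth hormone) at 125 ng per g body weight, and livers were taken 30, 90 or 240 min later. The controls, called untreated after the series design, were hypophysectomized males without GH. The labels' protocol mentions a vehicle injection for controls, so effects of injection and of GH cannot be told apart if controls were not injected. All 4 groups lacked the pituitary, and with it the animal's own GH. Each group was 2 pools of RNA from 4 mice each, and the 8 strand-specific libraries were made from poly-A RNA.

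A ribosome holds 1 copy of nearly every subunit protein on a scaffold of ribosomal RNA, and the proteins are made in matched amounts. Their mRNAs are short, abundant in most cells and stable. Vertebrate ribosomal protein mRNAs begin with a run of pyrimidines, the TOP sequence, through which the mTOR kinase and the RNA-binding protein LARP1 control their translation and stability. Liver, which secretes most plasma proteins, carries many ribosomes.

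The table holds the authors' mean FPKM (fragments normalised to transcript length and library size) of each group, not the value of any pool. It also gives their ratio of each GH group to untreated liver and an adjusted p. No spread between pools can therefore be given, and a gene is said to have risen or fallen where the authors' adjusted p was below 0.05. Genes whose FPKM averaged 1 or more across the groups are called measured, which held for 10736 genes and 85 of the 88. Rpl10l and Rpl39l, known from testis, and Rpl3l, known from striated muscle, were below that level. Library totals estimated from the smallest FPKM steps were 7.44 and 10.5 M reads in untreated liver, 9.50 and 9.85 M at 30 min, 15.4 and 17.1 M at 90 min, and 5.94 and 14.2 M at 240 min. These totals are rough, since only 44.6 to 49.1% of the steps were whole reads. At this depth a median subunit gene held about 4740 reads over both untreated pools. The counting error would be about 1.45%, which covers counting only and not the spread between pools. The response to GH was present in the libraries: Socs2, a feedback inhibitor of GH signalling, rose at all 3 times, with log2 ratios of 3.78, 4.44 and 4.82 in the authors' deposited table.

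Together the 77 subunit genes made up 5.79% of all FPKM in untreated liver, with a sum of 26404. Their summed authors' mean FPKM was 22397 at 30 min, 19362 at 90 min and 23821 at 240 min, or 5.20%, 4.86% and 5.57% of all FPKM in those groups. The sum was thus lowest at 90 min and nearer the untreated level at 240 min. Among the 500 genes with the highest FPKM in untreated liver were 72 of the 77. FPKM is scaled per length, so levels can be set side by side between genes, though subunit genes have many processed pseudogenes with counting of shared reads not given in the sources used here.

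The gene with the highest level was Rps2, at the mRNA entry of the small subunit, with an authors' mean of 1001 FPKM in untreated liver, 843 at 30 min, 714 at 90 min and 848 at 240 min. Rpl10, which is needed for the joining of the subunits, had 752 FPKM in untreated liver, 703 at 30 min, 607 at 90 min and 696 at 240 min. Rplp1, an acidic protein of the stalk that recruits translation factors, had 697 FPKM in untreated liver, 588 at 30 min, 483 at 90 min and 684 at 240 min. All 3 had their lowest mean at 90 min. Among those below them in untreated liver were Rps18 with 665 FPKM, Rpl41 with 569, Rps14 with 568, Rpl36 with 550, Rpl28 with 542 and Rps15 with 522. Neighbours in this order cannot be separated, since no spread is given. The lowest subunit gene was Rps15a, with 15.01 FPKM in untreated liver, 13.4 at 30 min, 12.3 at 90 min and 15.3 at 240 min. The transcript matched to it here is the longest among the subunits, 5179 nt against a median of 799 nt. The length behind the authors' FPKM was not given, so its part in this low level was not tested. Among the other symbols, Rpl37rt had 2.07 FPKM, Rps4l 2.17 FPKM and Rps19bp1 13.7 FPKM in untreated liver, while Rpl39l was at 0.0835 FPKM.

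**Figure D1:**
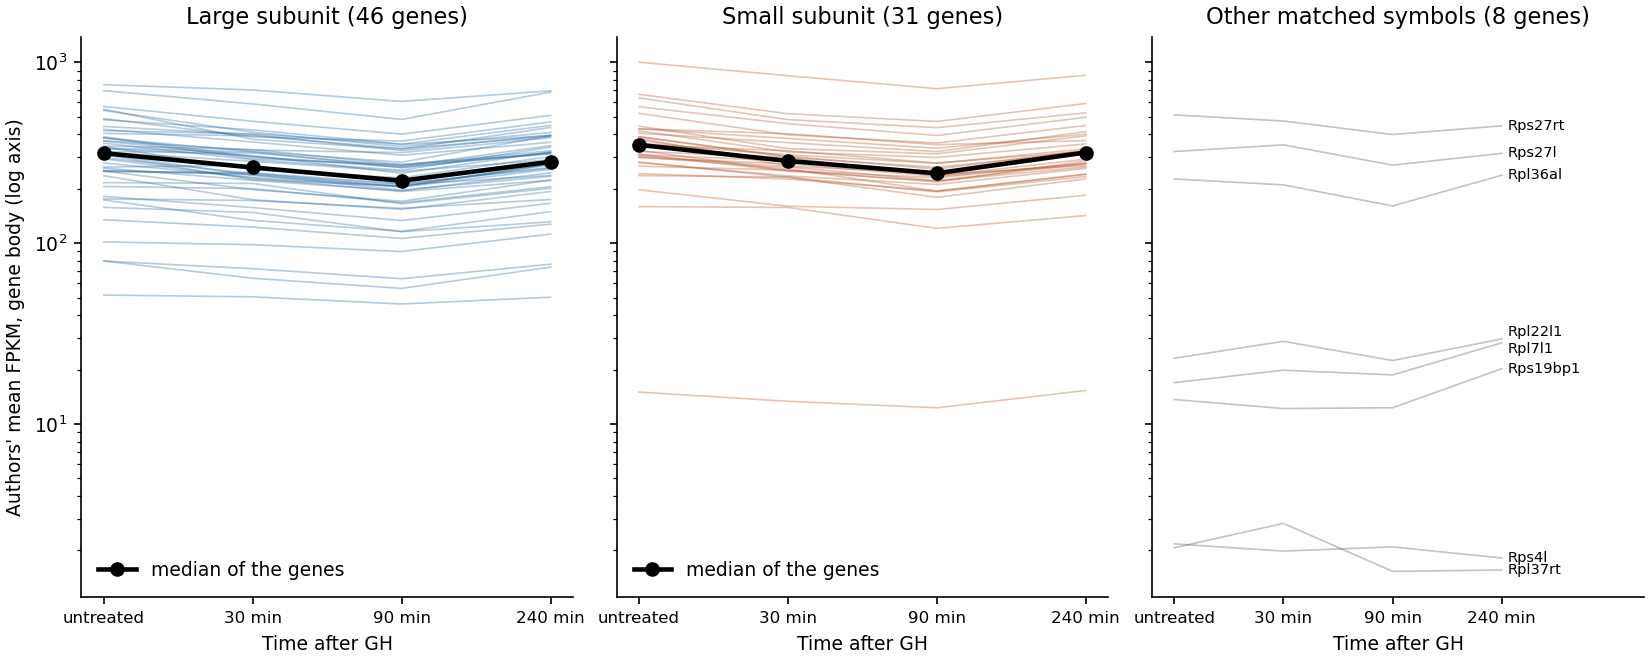
Authors' mean FPKM over the gene body (log axis) in untreated liver and 30, 90 and 240 min after GH, 1 thin line per measured gene, for the large subunit, the small subunit and the other matched symbols. Black points are the median of the genes: each subunit class is lowest at 90 min, and 1 small-subunit gene, Rps15a, lies far below the rest.

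At 30 min, none of the 85 measured genes passed the test in the authors' deposited table, where 0.224% of all measured genes rose and 0.289% fell. Every subunit gene had an adjusted p of 1 there, and the table gives no unadjusted p. The median log2 ratio of the 85 was -0.13 in the authors' deposited table, beside 0.02 for all measured genes. Among the lowest values, given without a call, were -0.49 for Rpl36, -0.46 for Rps12, -0.40 for Rpl18 and -0.36 for Rpl10a. The highest were 0.46 for Rpl37rt, 0.36 for Rpl22l1, 0.28 for Rpl7l1, 0.18 for Rps27l and 0.09 for Rpl39, so 4 of the 5 highest were symbols outside the canonical ribosome.

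At 90 min, ribosomal protein genes fell together by a modest amount. Of the 85 measured genes, 63 (74.1%) fell and none rose in the authors' deposited table, while 12.5% of all measured genes fell and 15.9% rose. The subunits of the canonical ribosome accounted for 61 of the 63, 35 of 46 in the large subunit and 26 of 31 in the small one. Their median log2 ratio was -0.45, beside -0.01 for all measured genes, and both subunits were alike with medians of -0.45 and -0.46 in the authors' deposited table. The 77 ratios were all below 0, from -0.73 to -0.17. Their SD over genes was 0.13 on the log2 scale. It was 0.27 over other genes of like length and level and 0.55 over all measured genes. Each of the 77 had its lowest group mean at 90 min, which also held for 94.8% of mitochondrial ribosomal protein genes, 65.5% of the 391 other genes of like length and level and 27.5% of all measured genes. None of the 85 reached a 2-fold fall.

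The lowest ratio was that of Rpl36, a protein of the large subunit, with an authors' mean of 331 FPKM at 90 min against 550 FPKM in untreated liver. Its log2 ratio of -0.73 had an adjusted p of 1.51e-05 in the authors' deposited table. The order changed once the trend of the ratio with transcript length and GC content over all genes was removed, when Rpl36 was at -0.21 and Rpl27a, Rpl37a and Rpl28 lay lower, at -0.44, -0.44 and -0.38. Rpl28, also of the large subunit, had 342 FPKM at 90 min against 542 FPKM in untreated liver (log2 ratio -0.67, adjusted p 5.61e-06 in the authors' deposited table). Rps28 and Rps26, which line the mRNA exit of the small subunit, followed. Rps28 had 179 FPKM at 90 min against 281 FPKM in untreated liver, and Rps26 had 194 FPKM at 90 min against 300 FPKM in untreated liver. Their log2 ratios were -0.65 and -0.64, with adjusted p of 1.17e-05 and 7.37e-06 in the authors' deposited table. Rps12, in the beak of the small subunit, had 243 FPKM at 90 min against 381 FPKM in untreated liver, with a log2 ratio of -0.65 and an adjusted p of 1.38e-05 in the authors' deposited table. Others among the 10 lowest were Rpl37a, Rpl27a and Rps21, with log2 ratios from -0.61 to -0.59 in the authors' deposited table.

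By position in the ribosome the falls were spread widely. Over all 77 subunit genes 79.2% fell in the authors' deposited table, and no list was tested against that share. All 4 genes of the stalk and its base fell: Rplp2 by 0.56, Rplp1 by 0.53, Rpl12 by 0.45 and Rplp0 by 0.44 on the log2 scale in the authors' deposited table. All 7 genes along the mRNA path of the small subunit fell, as did 6 of the 9 around the exit tunnel of the nascent chain. Of the pair that binds 5S rRNA and can inhibit Mdm2 when free, Rpl11 fell by 0.45 (adjusted p 0.00189) in the authors' deposited table. Rpl5, its partner, had 156 FPKM at 90 min against 176 FPKM in untreated liver and a log2 ratio of -0.17 (adjusted p 0.398) in the authors' deposited table. The difference between Rpl11 and Rpl5 was not tested. Of 16 subunit genes that carry snoRNAs in their introns 11 (68.8%) fell, with a median log2 ratio of -0.39 in the authors' deposited table. Of 9 genes mutated in human Diamond-Blackfan anaemia, a failure of red cell production, 5 (55.6%) fell. Rps19, the gene most often mutated in it, had 220 FPKM at 90 min against 311 FPKM in untreated liver. Its log2 ratio of -0.50 (adjusted p 0.00186 in the authors' deposited table) was 0.014 once the trend with length and GC content was removed.

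Rps6, the substrate of the S6 kinases, had 234 FPKM at 90 min against 297 FPKM in untreated liver. It fell by 0.34 on the log2 scale (adjusted p 0.0182) in the authors' deposited table. Rpl13a, which in human monocytic cells also silences inflammatory mRNAs, fell by 0.50 (adjusted p 0.000699), and Rpl3, close to the peptidyl transferase centre, by 0.35 (adjusted p 0.0132) in the authors' deposited table. Rpl10 fell by 0.31 (adjusted p 0.0403) in the authors' deposited table. Its distance from the subunit median of -0.45 was not tested. The 16 subunit genes that were not called were Rpl4, Rpl5, Rpl9, Rpl15, Rpl17, Rpl22, Rpl23, Rpl30, Rpl34, Rpl35a, Rpl39, Rps7, Rps15a, Rps24, Rps25 and Rps29, with log2 ratios between -0.34 and -0.17 in the authors' deposited table. Near the threshold, Rps4x with a log2 ratio of -0.29 had an adjusted p of 0.0497 and Rps7 with -0.32 had 0.0593 in the authors' deposited table.

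**Figure D2:**
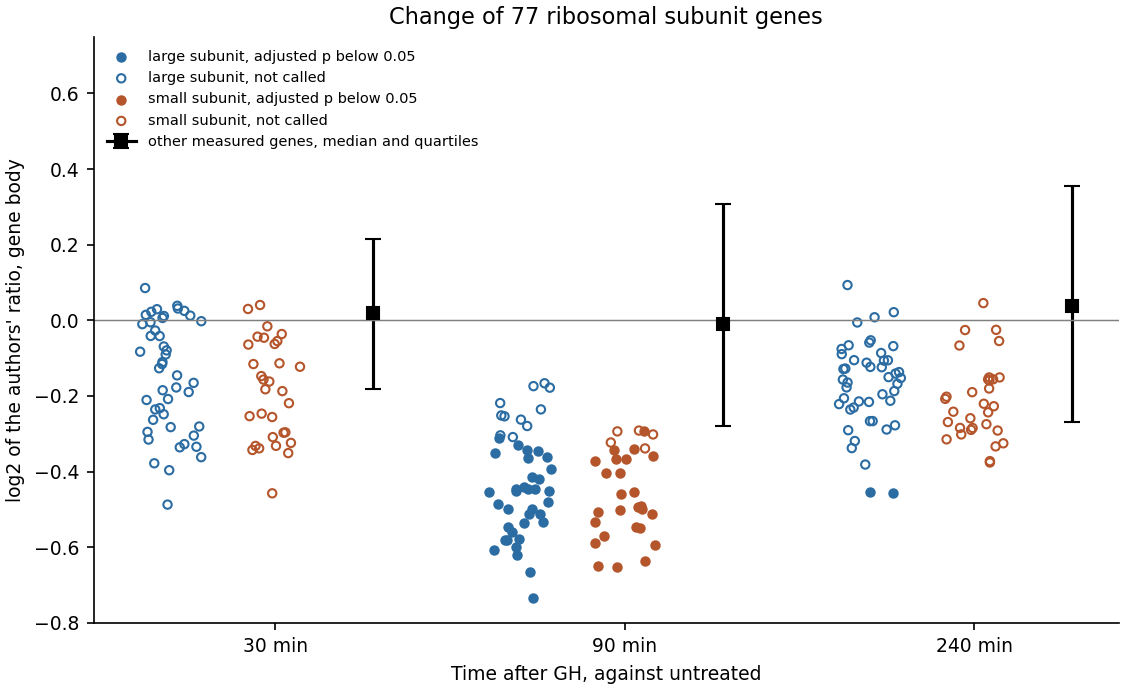
Log2 of the authors' ratio over the gene body for the 46 large-subunit and 31 small-subunit genes at 30, 90 and 240 min against untreated liver, filled where the authors' adjusted p was below 0.05. Squares with bars are the median and quartiles of the other measured genes: at 90 min all 77 points lie below 0 and 61 are filled, at 30 min none is filled and at 240 min 2 are.

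The change at 90 min ran with transcript length and GC content, in subunit genes and in other genes. Short transcripts in general had lower ratios at 90 min: other measured genes under 1000 nt had a median log2 ratio of -0.33, those of 1000 to 1500 nt -0.28 and those of 1500 nt or more 0.06 in the authors' deposited table. The subunit genes lay lower in each class. Medians were -0.47 for 54 genes under 1000 nt and -0.43 for 14 genes of 1000 to 1500 nt. For 9 genes of 1500 nt or more the median was -0.29. Rps20, among these 9, was matched to 3706 nt, longer than its span of chr4:3761619-3762747 in mm9. Its length and its GC content of 41.3%, the lowest of the subunits, may therefore be wrong. The 391 other genes of like length and level were between 392 and 2029 nt long and at 88.4 FPKM or more in untreated liver. Their median was -0.30 and 47.8% fell in the authors' deposited table. Most of the distance between subunit genes and all genes was thus also seen in these genes. They were chosen by their level in untreated liver, the denominator of the ratios, which can by itself lower their median. The size of that effect was not tested. With the trend with length and GC removed, the median of the 84 members with a length was -0.15, and 77 of the 84 were below 0. The spread over those genes was then 0.17 (SD), against 0.22 over the 391 other genes of like length and level.

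Among the subunit genes themselves, those rich in GC had the lower ratios. The 26 with 53.1 to 60.8% GC had a median log2 ratio of -0.53 and 25 of them fell, while the 26 with 41.3 to 49.4% GC had -0.33 and 14 of them fell in the authors' deposited table. Across the 77 genes Spearman's rho of the log2 ratio at 90 min was -0.55 with GC content and 0.32 with length. Over 10565 other measured genes the same values were -0.54 and 0.49. Such correlations are across genes that share the same libraries, and they describe these pools only. At 30 min, with no gene called, rho with GC was -0.56 for the subunit genes and -0.59 for the other genes. Whether a technical property of the libraries gave this dependence was not tested.

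**Figure D3:**
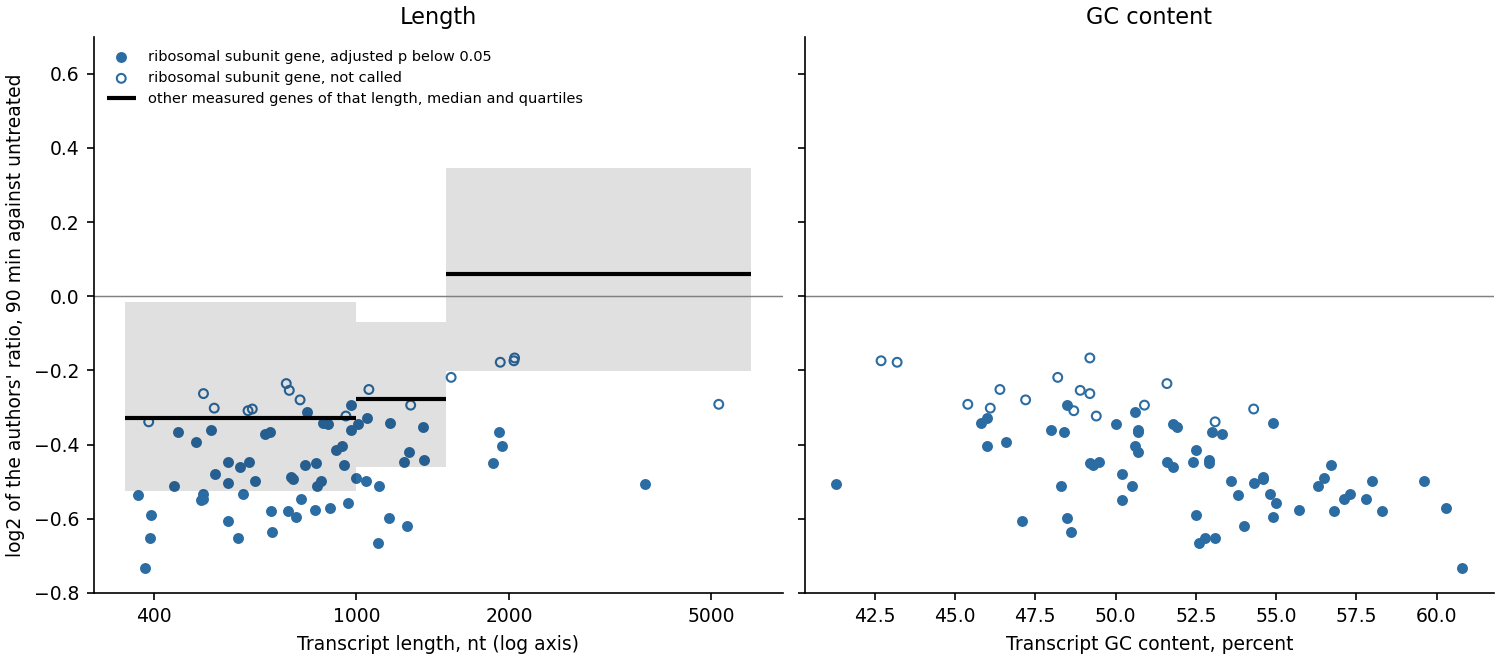
Log2 of the authors' ratio at 90 min against untreated liver for 77 ribosomal subunit genes, plotted against transcript length (log axis) and GC content, filled where the adjusted p was below 0.05. Black lines with grey boxes are the median and quartiles of other measured genes in 3 classes of length (-0.33, -0.28 and 0.06): subunit genes lie lowest at high GC.

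The scale of the ratio also bears on the size. Multiplying FPKM so that each group has the same sum moved the median of all measured genes at 90 min to 0.18 and that of the members to -0.24. Such scaling moves all genes alike, so it cannot change the distance between members and all genes, which was -0.43 by either scale. The sum of 4 hepatocyte markers, among them Alb, was 40859 FPKM at 90 min against 50946 FPKM in untreated liver, with 3 of the 4 called. Of other cell types, 7 lymphocyte markers summed to 5.11 FPKM at 90 min against 8.67 FPKM in untreated liver, with 1 called, and none of them was at 0. The 4 Kupffer cell markers summed to 86.1 FPKM at 90 min against 110 FPKM in untreated liver, with 1 called. The 5 neutrophil markers summed to 41.5 FPKM at 90 min against 28.9 FPKM in untreated liver, with 1 called and Camp at 0 in all groups. The 4 erythroid markers summed to 185 FPKM at 90 min against 242 FPKM in untreated liver, with 1 called. The 4 endothelial markers summed to 64.1 FPKM at 90 min against 71.9 FPKM in untreated liver, and the 4 cholangiocyte markers to 2.89 FPKM against 2.87 FPKM, with none called in either list. The part of these shifts in the fall of ribosomal protein genes was not tested, and in whole liver fewer cells of a type and less RNA per cell cannot be told apart.

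At 240 min most subunit genes were closer to untreated liver and few passed the test. Of the 85 members, 2 (2.35%) fell in the authors' deposited table, beside 8.58% of all measured genes, and 1 rose (1.18%), beside 14.4%. The members' share of calls was thus below that of the table. Rpl28 had 409 FPKM at 240 min against 542 FPKM in untreated liver (log2 ratio -0.46, adjusted p 0.0221 in the authors' deposited table). Rpl37a, a zinc-binding protein of the large subunit, had 222 FPKM at 240 min against 293 FPKM in untreated liver (log2 ratio -0.45, adjusted p 0.0420 in the authors' deposited table). Both had also fallen at 90 min. Rpl36, Rps28 and Rps26 were next lowest among the subunits, with log2 ratios of -0.38, -0.38 and -0.37 and no call in the authors' deposited table.

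All 77 subunit genes had a higher mean at 240 min than at 90 min, which also held for 98.7% of mitochondrial ribosomal protein genes, 73.1% of other genes of like length and level and 59.6% of all measured genes. No test between these times is in the table. At 240 min 70 of the 77 (90.9%) had a mean below that of untreated liver, as did 76% of genes of like length and level and 42.6% of all measured genes. The members' median log2 ratio at 240 min was -0.18 in the authors' deposited table, beside 0.03 for all measured genes, and it was -0.0345 with FPKM scaled to the same sum. Other genes of like length and level had -0.23 at 240 min, 0.05 lower than the members, so against them the members' sign turned round. Those genes were chosen by their untreated level, which can lower their ratios. With the trend with length and GC removed the members' median was -0.14. Rpl15, Rps25, Rpl30 and Rpl4 had the highest log2 ratios among the subunits, 0.09, 0.05, 0.02 and 0.01 in the authors' deposited table, with no call.

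The 11 other symbols did not move as 1 group. Rpl7l1, a paralogue of Rpl7 that acts in the nucleolus in assembly of the large subunit, rose at 240 min. It had 28.1 FPKM at 240 min against 16.9 FPKM in untreated liver, with a log2 ratio of 0.69 and an adjusted p of 0.000595 in the authors' deposited table, and it was the only member to rise over the gene body. At 90 min its log2 ratio was 0.14 (adjusted p 0.758 in the authors' deposited table). Rpl36al, a paralogue of Rpl36a that encodes nearly the same protein, had 161 FPKM at 90 min against 226 FPKM in untreated liver, a fall of 0.50 on the log2 scale (adjusted p 0.00111) in the authors' deposited table. At 240 min its log2 ratio there was 0.02.

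Rps19bp1, which encodes a binding protein of Rps19, had 20.2 FPKM at 240 min against 13.7 FPKM in untreated liver (log2 ratio 0.50, adjusted p 0.109 in the authors' deposited table). Rpl22l1, a paralogue of Rpl22, had 29.5 FPKM at 240 min against 23.1 FPKM in untreated liver (log2 ratio 0.35, adjusted p 0.624 in the authors' deposited table). Neither passed the test. Rps27l, a paralogue of Rps27 that p53 induces in human cells, had 270 FPKM at 90 min against 321 FPKM in untreated liver (log2 ratio -0.25, adjusted p 0.135 in the authors' deposited table). Rpl37rt and Rps4l stayed between 1.53 and 2.82 FPKM in all groups and were not called. Rpl3l was listed at 0 in untreated liver and at no more than 0.0971 FPKM elsewhere, and Rpl10l was listed at 0 in every group. Rps27rt was placed by the table at the same locus as Rps27, at chr3:90016588-90017570 in mm9, and how reads shared by the 2 rows were counted was not given. Rps27 had a log2 ratio of -0.37 at 90 min and Rps27rt -0.36 in the authors' deposited table, so these may not be independent, and both are among the 63 called genes.

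The starts of the genes were examined for an exact pyrimidine run, which covers only part of the TOP sequence, the start known for these mRNAs. RefSeq windows of 300 bases around the transcription start (GRCm38.p6) were matched to 57 of the 77 subunit genes, in 67 windows. The pyrimidine run CTTTCC, searched on the transcribed strand, was in 38.8% of these windows in 14.1% of 32851 windows of all genes and in 14.7% of the 10193 windows of other measured genes. In the 30 bases centred on the start it was in 13.4%, 1.42% and 1.36% of these, and in 9 of the 57 genes. The windows below run from 15 bases before the start to 15 bases from the start on, with CTTTCC in capitals. They show 3 subunit genes that fell at 90 min and hold the run, 2 that hold it and were not called (Rpl15, and Rpl35a in 1 of its 3 windows), 2 that fell without it (Rps28 and Rps26) and Rpl7l1, and were chosen after their values were seen.
Rpl28 (chr7:4792950-4792979, plus strand): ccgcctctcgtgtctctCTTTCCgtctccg
Rpl38 (chr11:114668565-114668594, plus strand): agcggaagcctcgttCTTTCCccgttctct
Rps10 (chr17:27635230-27635259, minus strand): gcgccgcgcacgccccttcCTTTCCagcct
Rpl15 (chr14:18270972-18271001, minus strand): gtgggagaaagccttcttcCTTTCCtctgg
Rpl35a (chr16:33056467-33056496, plus strand): gcggggcttgccttcctCTTTCCgccatct
Rps28 (chr17:33824548-33824577, minus strand): ggtaccgcgtgcggtctcgcgagagcgaaa
Rps26 (chr10:128626492-128626521, minus strand): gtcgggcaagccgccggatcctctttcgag
Rpl7l1 (chr17:46782642-46782671, minus strand): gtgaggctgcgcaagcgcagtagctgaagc

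Subunit genes with and without CTTTCC in the 300-base window had close values. The 23 subunit genes with it had a median log2 ratio of -0.45 at 90 min and 18 fell. The 34 without it had -0.43 and 26 fell in the authors' deposited table. A match could lie anywhere in the window, and around the start CTTTCC was in only 9 of the 57 genes. Other pyrimidine runs were not searched. The split therefore does not part genes with a TOP start from genes without one. Whether the TOP sequence bears on the fall was not tested. Other sequences were searched on both strands of the same windows. CCGGAAG, the core bound by ETS factors such as GABP, was in 37.3% of the subunit windows and 8.86% of all windows, and in 17.9% of those of other measured genes. ATGGCGG, part of the YY1 site, was in 17.9% of the subunit windows, 4.05% of all windows and 8.38% of those of other measured genes. The E-box CACGTG, bound by MYC among others, was in 11.9%, 7.15% and 10.2% of these. TTCNNNGAA, the form of site bound by STAT5, was in 4.48%, 8.30% and 6.88%. The 24 genes with CCGGAAG had a median of -0.47 at 90 min and the 33 without it -0.42 in the authors' deposited table. A match is a run of letters and not a site shown to be bound.

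Reads in introns, mostly from RNA not yet spliced, were few: over the 77 subunit genes their summed authors' mean FPKM was 182 in untreated liver, 171 at 30 min, 195 at 90 min and 221 at 240 min. At least 0.01 intronic FPKM was also held by 9897 of the measured genes, 84 members among them. Intronic shares of all measured genes are over these 9897. At 90 min, 10 of them (11.9%) fell in introns and none rose in the authors' deposited table, beside 6.61% of all measured genes that fell and 7.90% that rose. These 10 were Rps27, Rps27rt, Rps2, Rpl3, Rpl7a, Rpl12, Rpl13a, Rplp1, Rps29 and Rps9. The authors place the first 2 at 1 locus, while the RefSeq window of Rps27rt lies on chr9 in GRCm38.p6.

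The direction in introns depends on the scale. The members' median log2 ratio at 90 min was -0.37 in the authors' deposited table, while the quotient of the authors' mean intronic FPKM gave 0.21, on which 64 of 84 members were above 0. The authors' ratio and the quotient differ by a nearly constant step for all genes, 0.57 on the log2 scale at 90 min and 0.39 at 240 min. The median of all measured genes was 0.06 by the ratio and 0.63 by the quotient at 90 min. Relative to that median the members lay at -0.43 by the ratio and -0.42 by the quotient. For the gene body the same comparison gave -0.43 by both. A step shared by all genes leaves these distances nearly unchanged, so their closeness is no test of the scale. Against genes of like length and level the picture differed: those had an intronic median of -0.52 and 36.2% of them fell in the authors' deposited table. The members, at -0.37, lay above such genes in introns, and below them over the gene body, at -0.45 against -0.30 in the authors' deposited table. Such genes were chosen by their untreated gene body level, which can lower their ratios.

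Rps27, at the platform of the small subunit, had 11.7 intronic FPKM at 90 min against 17.6 in untreated liver, a fall by the quotient as well. Its log2 ratio in introns was -1.16 (adjusted p 4.16e-05) at 90 min and -1.05 (adjusted p 0.00147) at 240 min in the authors' deposited table, and it was the subunit gene that fell at both times. Its intronic level in untreated liver was far above the subunit median of 1.52 FPKM. The authors' span of Rps27 overlaps Rps27rt, listed there at 12.4 intronic FPKM, and how shared reads were counted was not given. Rplp1 had 1.20 intronic FPKM at 90 min against 2.14 in untreated liver (log2 ratio -1.42, adjusted p 0.0318 in the authors' deposited table). Rps2 had 16.5 intronic FPKM at 90 min against 19.9 in untreated liver (log2 ratio -0.85, adjusted p 0.00188 in the authors' deposited table). Rpl3 had 1.36 intronic FPKM at 90 min against 1.73 in untreated liver (log2 ratio -0.91, adjusted p 0.00194 in the authors' deposited table). All of these were below untreated liver by FPKM too. The spans of Rps2, Rpl3, Rpl12 and Rpl13a overlap snoRNA rows of the table, which sit in their introns, and the handling of snoRNA reads was not given in the sources used here.

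At 30 min no member was called in introns in the authors' deposited table (0.788% of all measured genes rose and 0.515% fell). At 240 min Rpl10a, a protein of the L1 stalk where tRNAs leave, rose in introns with 12.4 intronic FPKM at 240 min against 5.53 in untreated liver. Its log2 ratio was 0.79 (adjusted p 0.00238) in the authors' deposited table, beside 5.40% of all measured genes that rose and 5.97% that fell. Over the gene body Rpl10a had fallen at 90 min, by 0.58 on the log2 scale (adjusted p 6.80e-05) in the authors' deposited table, and at 240 min its log2 ratio there was -0.23 without a call. The members' intronic median at 240 min was -0.04 by the authors' ratio and 0.31 by the quotient, beside 0.04 and 0.43 for all measured genes. Across the 77 subunit genes the log2 ratios of introns and gene body at 90 min had a Spearman rho of 0.23, a weak relation in sparse intronic counts.

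**Figure D4:**
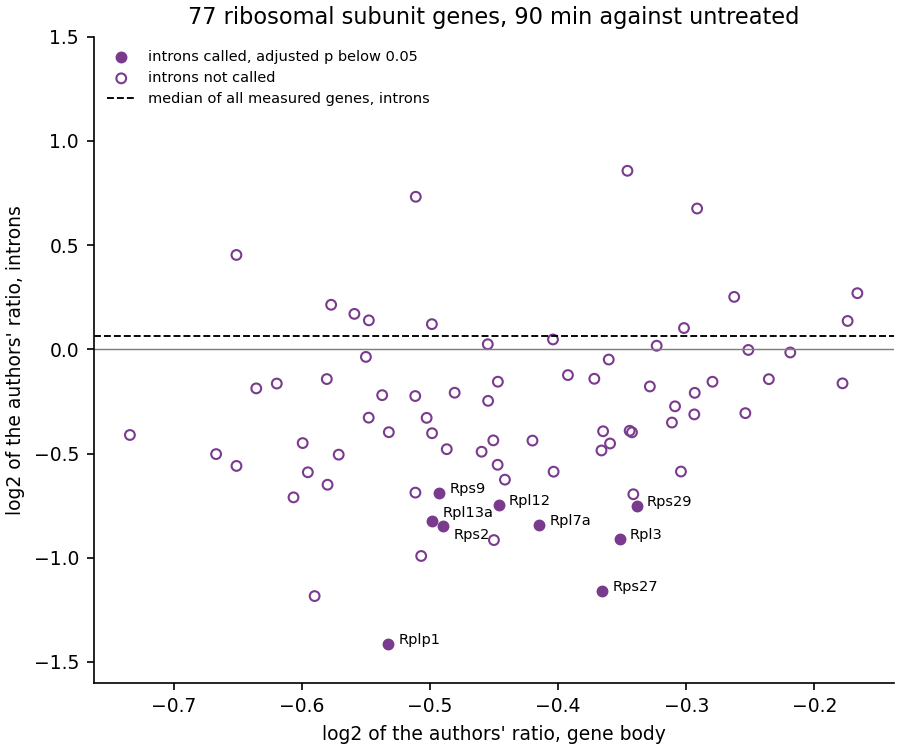
Log2 of the authors' ratio in introns against that over the gene body for 77 ribosomal subunit genes, 90 min against untreated liver. Filled points with names had an intronic adjusted p below 0.05 (9 genes, from -1.42 for Rplp1 to -0.69 for Rps9), and the dashed line is the intronic median of all measured genes, 0.06.

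The nearest functional relatives gave a mixed picture. Fau, which encodes a further small-subunit protein fused to a ubiquitin-like one, and Gnb2l1, the scaffold protein RACK1 of the small subunit, both fell at 90 min. Their log2 ratios were -0.56 and -0.36, with adjusted p of 0.000517 and 0.0224 in the authors' deposited table. The 77 mitochondrial ribosomal protein genes build the separate ribosome of mitochondria. Of them 20 (26%) fell at 90 min with a median of -0.30 in the authors' deposited table, beside 12.5% of all measured genes. At 240 min 3 (3.9%) rose with a median of 0.05 in the authors' deposited table, beside 14.4% of all measured genes. Among other genes under 1000 nt 26.9% fell at 90 min in the authors' deposited table, and with the trend with length and GC removed the median of the mitochondrial list was -0.11. Mrps24 fell by 0.65 and Mrps26 by 0.69 at 90 min in the authors' deposited table. Of 14 other TOP mRNAs, which share the pyrimidine start, 4 (28.6%) fell at 90 min, beside 12.5% of all measured genes. These 4 were Eif3f, Eif3h, Eef1b2 and Eef1d. The median of the 14 was -0.21 in the authors' deposited table, and -0.0655 with the trend removed. At 240 min only Eef2, the elongation factor that moves the ribosome along, was called (7.14%, beside 8.58% of all measured genes that fell). Its fall was 0.47 on the log2 scale in the authors' deposited table.

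Genes of ribosome assembly went the other way. Of 51 biogenesis genes 15 (29.4%) rose and 1 (1.96%) fell at 90 min in the authors' deposited table. Among all measured genes 15.9% rose and 12.5% fell. At 240 min 38 (74.5%) rose with a median of 0.73 in the authors' deposited table, beside 14.4% of all measured genes. Nop58, a core protein of box C/D snoRNPs, had 41.7 FPKM at 240 min against 9.33 FPKM in untreated liver, with a log2 ratio of 2.11 (adjusted p 5.50e-34) in the authors' deposited table. Tsr1, which acts in small subunit maturation, had a log2 ratio of 1.82 at 240 min in the authors' deposited table, and the nucleolar protein Nolc1 had 1.76. At 240 min no canonical subunit gene rose over the gene body, where Rpl7l1 was the member that rose. Of 17 regulators of ribosomal protein synthesis, 3 rose and 3 fell at 90 min in the authors' deposited table. Those that rose were Larp4, a poly-A RNA binding protein, by 1.51, Deptor, an inhibitor of mTOR, by 0.98, and Rps6kb1, the S6 kinase, by 0.75 on the log2 scale there. Those that fell were Sesn1, a stress-induced inhibitor of mTOR signalling, by 0.61, and the translation repressors Eif4ebp3 by 0.49 and Eif4ebp1 by 0.45 in the authors' deposited table. These shares, 17.6% each way, stand beside 15.9% higher and 12.5% lower among all measured genes. Larp4, Deptor and Rps6kb1 also rose at 240 min, with log2 ratios of 1.17, 1.18 and 0.92 in the authors' deposited table.

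**Figure D5:**
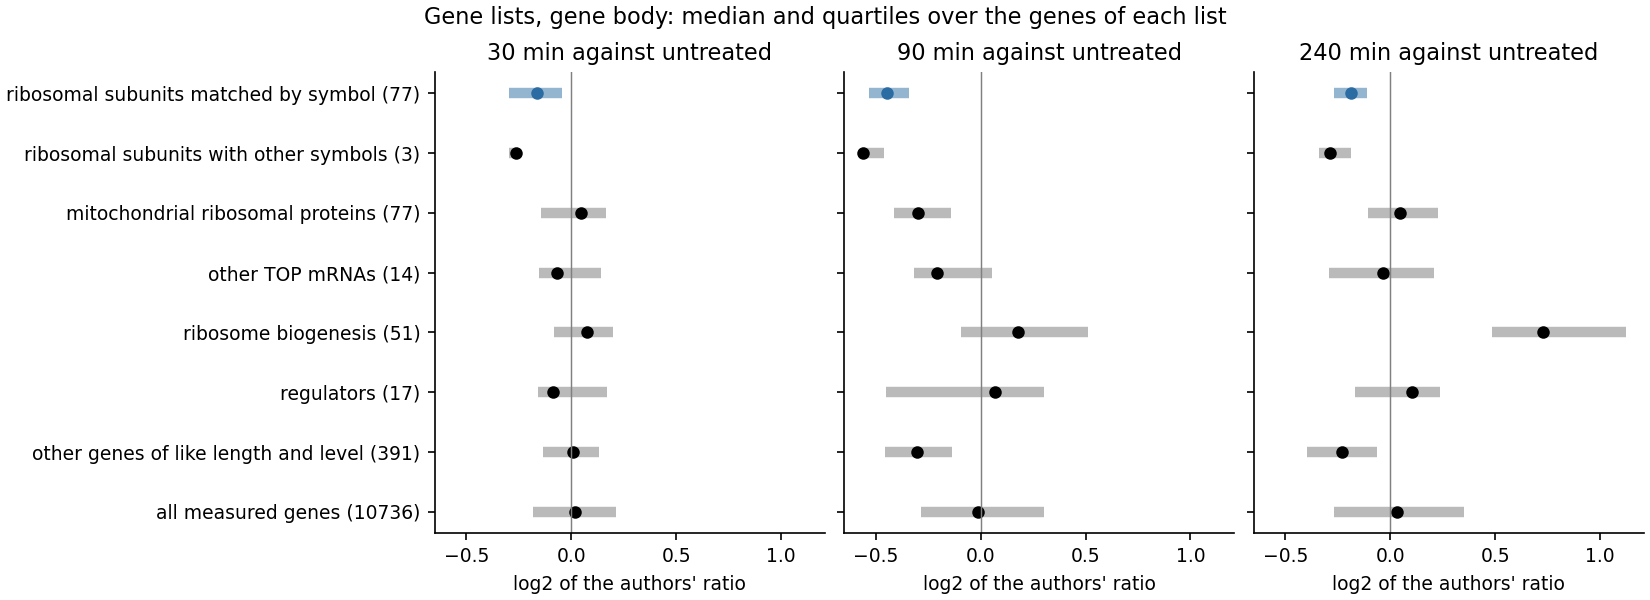
Median (point) and quartiles (bar) of the log2 of the authors' ratio over the gene body at 30, 90 and 240 min against untreated liver, for ribosomal subunit genes and related lists, with the number of genes in brackets. At 90 min the 77 subunits (-0.45) lie below other genes of like length and level (-0.30), and at 240 min ribosome biogenesis genes lie highest (0.73).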

How the data were processed

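Liver RNA of 8 pools was sequenced, 2 per group. TopHat2, featureCounts, edgeR and the mm9 build are named, per the submitters' processing notes, without settings. The FPKM values are the authors' means per group, for gene body and introns, per the file headers. The ratio and fold change are the authors' normalized values, per the file headers, and so is the adjusted p-value, of unstated method. With no value per pool the planned count test could not be run, and the authors' calls at an adjusted p below 0.05 were counted. The rule for named genes took up to 10 highest and 10 lowest log2 ratios among called members of a comparison (with fewer than 5 called, the 5 highest and 5 lowest), the 10 highest and 5 lowest by level, all symbols outside the canonical ribosome, the stalk and 5S genes, Rps6, Rps19, Rpl13a, Rpl3, Rpl10 and up to 4 called genes per list. Not all are printed, and a few genes are not reported here; those in the promoter windows and near the threshold fall outside it. Members and lists were chosen with earlier results of these data known. Length and GC came from GENCODE M21 transcripts matched by accession, or failing that from the longest protein-coding transcript of the symbol. Together these covered 99.2% of measured genes. Their trend was fitted per comparison and subtracted, and was tested on simulated data. The simulated trend was made of terms that the fit holds, so that test cannot show how well the fit describes these data. Depth was estimated from the smallest FPKM steps, of which 44.6 to 49.1% were whole reads within 0.001. Promoter windows are from RefSeq. Alternatives were a stricter p of 0.01, a 2-fold minimum, FPKM filters, pseudocounts of 1 and 0.1, trend removal and, added later, scaling to the same sum. The scripts ran in Python 3.11.15 with matplotlib 3.10.9, statsmodels 0.14.6, scipy 1.17.1, pandas 2.3.3 and numpy 2.4.6.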

Additional observations from a re-analysis of the deposited data

How the results depend on the processing

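No paired analysis was possible because the table holds no value of a single pool, and for the same reason leaving out a pool was not run. The fall over the gene body at 90 min kept its direction under all alternatives run, with a median log2 ratio of -0.15 after trend removal, -0.14 relative to genes of like length and level and -0.24 with FPKM scaled to the same sum. Of 63 calls 47 had an adjusted p below 0.01, and 0 reached 2-fold. With trend removal 73 of the 77 subunit genes were still below 0 at 90 min, and Rps19 was among those that turned round (0.0141). At 240 min the gene body calls were 1 at an adjusted p below 0.01 and 0 at 2-fold, and the median was 0.0502 relative to like genes and -0.0345 scaled to the same sum. The like genes were chosen by their untreated level, which can lower their ratios. Intronic calls at 90 min were 5 at the stricter p and 3 at 2-fold. Quotients of intronic FPKM gave medians of 0.12 (pseudocount 1) and 0.20 (0.1) at 90 min and 0.17 and 0.29 at 240 min; all genes shift with them. Without Rps27 and Rps27rt, 1 intronic call was left at 240 min. Scaling to the same sum and leaving out that locus were chosen after seeing the data. Pools of several mice and group means hide the spread between mice, so small differences between subunit genes cannot be ranked.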
